A study of Mus musculus with 12 samples.

Results

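The AP-1 and early growth response genes followed here are *Fos*, *Fosb*, *Fosl1*, *Fosl2*, *Jun*, *Junb*, *Jund*, *Atf3*, *Egr1* and *Egr2*, 10 of the 36186 rows of the expression table, each found by its gene symbol. RNA-Seq was performed on 12 libraries of mouse E15.5 forelimb zeugopod (radius and ulna) cells isolated by laser capture microdissection (LCM), all on a mixed 129/CD-1 background. There were 3 WT resting, 3 WT proliferative and 3 WT hypertrophic libraries, and 3 from *aadd* mutants, which carry frameshifts in 6 Hox genes, the 9, 10 and 11 genes of the Hoxa and Hoxd clusters. WT compartments were captured separately, and the labels call the hypertrophic one hyperproliferative. The small *aadd* zeugopods have no visible compartments, so their chondrocytes were captured as a single population, although the labels call them resting. According to the methods the captured cells were mainly chondrocytes with some perichondrium. Nothing in the labels ties a library to an embryo, so the spread between the 3 libraries of a group may in part be technical.

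AP-1 is a dimer of a Jun protein with another Jun protein, a Fos protein or a relative such as Atf3, and it binds DNA as a leucine zipper. Egr1 and Egr2 are zinc finger factors. Most of these genes are immediate early genes: serum, growth factors, mechanical load or stress switch them on within minutes through MAP kinases, Srf and Creb, with no new protein needed, and their transcripts decay quickly. In the skeleton, Fos is required for osteoclasts, Fosl2 acts in chondrocytes, osteoblasts and osteoclasts, Jun and Junb act in cartilage and bone growth, and Egr2 acts in osteoblasts and osteoclasts.

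Promoter windows were available from RefSeq (GRCm38.p6, the build that mm10 matches) for 8 of the 10 genes, all but *Fosl1* and *Egr1*. They are shown because immediate early induction is read from short sites near the start, and the windows searched differ in them. The 250 bases before the start were searched on both strands for a CArG box (the site of Srf), TGACG (a CRE half-site), TGACGTCA (a full CRE), TGANTCA (the classical AP-1 site), TGACATCA (a variant AP-1 site), GCGNGGGCG (the Egr site) and TATAAA. The CRE half-site lies within the full CRE, so a full match counts under both. Of 32851 windows of this length, 1.47% hold a CArG box, 17.8% TGACG, 1.55% TGACGTCA, 6.75% TGANTCA, 2.93% TGACATCA, 4.7% GCGNGGGCG and 12.4% TATAAA. The *Fos* window (chr12:85473640-85473889, plus strand) holds TGACG at -129 and -66 and TATAAA at -33, and the *Jun* window (chr4:95052223-95052472, minus strand) holds TGACATCA at -45, positions being counted back from the start site. The *Egr2* window holds a CArG box at -72, shown with the bases around it (chr10:67537787-67537816, plus strand), and TGACG at -111 and, on the opposite strand, at -55. Capitals mark the matches named for *Fos* and *Jun* and, for *Egr2*, the CArG box only.
Fos: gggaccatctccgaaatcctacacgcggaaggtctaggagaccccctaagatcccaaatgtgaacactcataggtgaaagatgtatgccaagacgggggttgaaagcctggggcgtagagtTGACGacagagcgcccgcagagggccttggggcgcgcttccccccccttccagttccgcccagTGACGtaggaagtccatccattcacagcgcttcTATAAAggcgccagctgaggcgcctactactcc
Jun: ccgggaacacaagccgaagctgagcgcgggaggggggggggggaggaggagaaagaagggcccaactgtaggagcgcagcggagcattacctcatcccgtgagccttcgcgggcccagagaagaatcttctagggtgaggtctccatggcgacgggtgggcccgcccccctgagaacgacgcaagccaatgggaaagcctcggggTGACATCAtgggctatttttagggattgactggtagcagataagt
Egr2: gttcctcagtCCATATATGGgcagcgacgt
Of the others, *Fosb* holds TGACG at -60 and GCGNGGGCG at -50, *Fosl2* GCGNGGGCG at -79, *Junb* TGACG at -106, *Atf3* TGACG on the opposite strand at -7, and *Jund* none of the 7 motifs. A match is a description of the letters, and binding was not measured. Bases farther than 250 from the start were not searched, so a motif missing from a window, such as the CArG box from that of *Fos*, may lie beyond it.

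The libraries were shallow. The value of 1 read, recovered from single-exon receptor and keratin-associated genes, puts the depth at 1880000 to 3230000 reads. 1 read on 1 kb is worth 0.309 to 0.530 NRPKM, the normalized RPKM of the deposited table. WT hypertrophic replicate 1 stands apart from replicates 2 and 3 of its group. Its 12 cartilage markers sum to 3343 NRPKM against 776 and 1126, while 10 endothelial markers sum to 21.7 against 304 and 212, 10 osteoclast markers to 70.3 against 1308 and 963, and 10 macrophage markers to 24.8 against 287 and 229. In WT resting, WT proliferative and *aadd* libraries these 3 sums run from 5.01 to 37.3, 40.9 to 70.4 and 13.4 to 45.4, the highest endothelial and macrophage sums being those of *aadd* replicate 2. By 10 osteoblast markers replicate 1 was closer to its group, with a sum of 1693 NRPKM against 2656 and 3888. This sum ran from 291.5 to 1438 in the libraries of the other groups. Most of the WT hypertrophic macrophage sums came from *Cd68* (18.2, 174 and 160 NRPKM) and *Csf1r* (2.08, 56.7 and 49.6). Results on the hypertrophic libraries are therefore also given without replicate 1 where this changed a call or moved a count by over 1.5 times. In captured tissue, fewer cells of a type and less RNA per cell cannot be told apart.

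Levels of the 10 genes differed widely. *Fosl2*, *Jun* and *Jund* were at 5 NRPKM or more in all 12 libraries and *Egr1* in 9, whereas *Fos* reached it in 3, *Egr2* and *Atf3* in 2, *Junb* in 1 and *Fosb* and *Fosl1* in none. The tests covered the 10936 genes that reached 5 NRPKM in 3 or more libraries, and 5 of the 10 members (*Fos*, *Fosl2*, *Jun*, *Jund* and *Egr1*) passed this filter. A gene was called at an unadjusted *P* of 0.05 or less if it changed 2-fold between WT compartments, or 1.5-fold between *aadd* and WT resting. The values printed are *P* adjusted over all genes tested, so that a called gene can have an adjusted *P* well above 0.05. Fold changes are on the log2(NRPKM + 0.1) scale, which understates those of low genes.

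**Figure D1:**
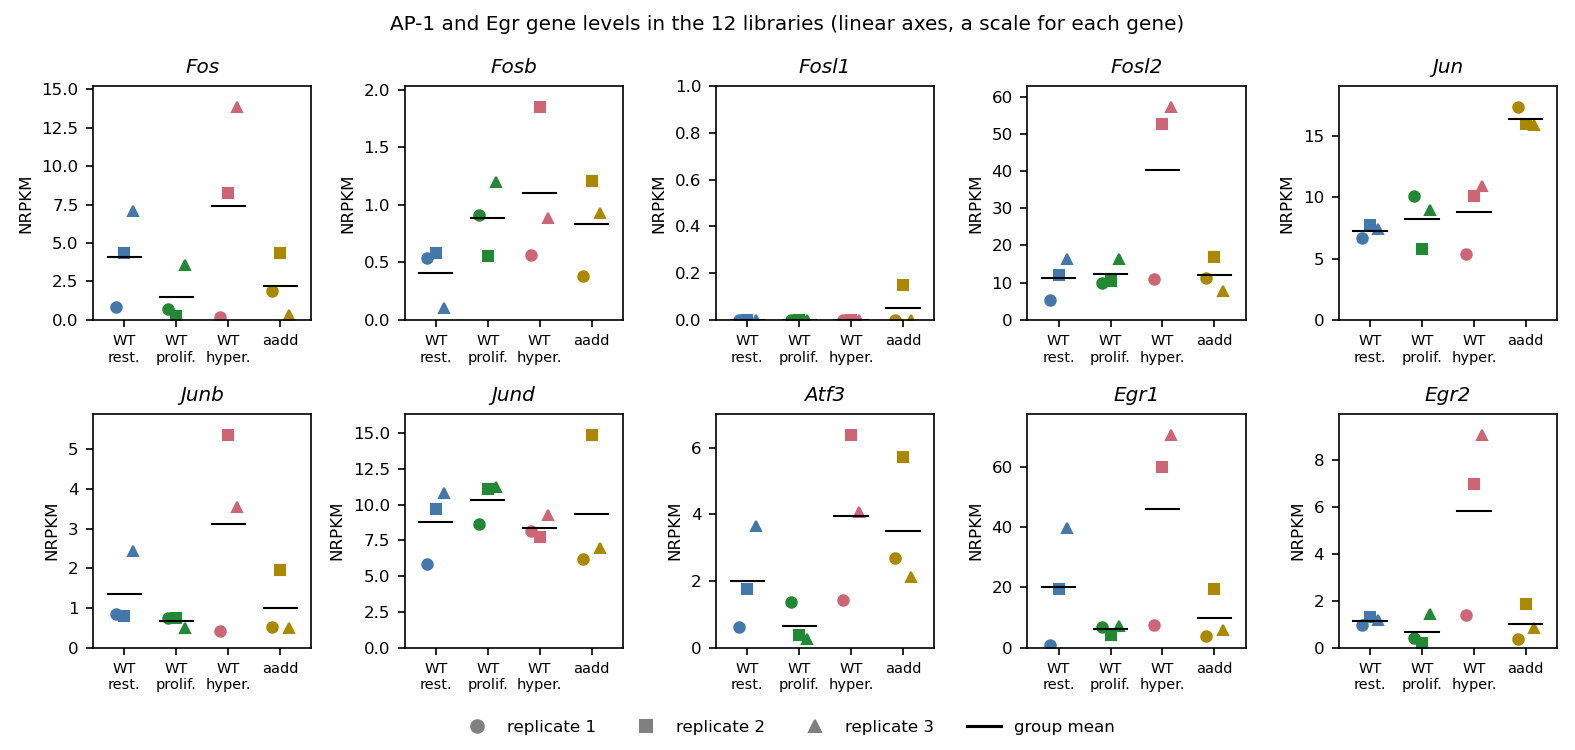
NRPKM (linear axes, a scale for each gene) of the 10 members in each of the 12 libraries, by group, with replicates 1 to 3 as circle, square and triangle and the group mean as a line. *Jun* lies at 15.9 to 17.4 in *aadd* and at 5.37 to 11.0 in WT, whereas *Egr1*, *Egr2*, *Fosl2*, *Fos* and *Junb* are high in WT hypertrophic replicates 2 and 3 but not in replicate 1.

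*Jun*, the main partner of Fos proteins and an activator of its own promoter, was the member that separated *aadd* from WT. *Jun* (gene ID 16476, a single exon at chr4:95049036-95052222) was at 17.4, 15.98 and 15.9 NRPKM in *aadd* replicates 1, 2 and 3. It was at 6.71, 7.75 and 7.38 NRPKM in WT resting. The groups do not overlap, with means of 16.4 ± 0.824 and 7.28 ± 0.528 NRPKM (SD, n = 3 each) and a ratio of 2.25. The difference was 1.16 on the log2 scale (SE 0.15, 95% interval 0.81 to 1.52), with an adjusted *P* of 0.076 that ranged from 0.053 to 0.28 over 12 alternative fits. The call was made in all 12 of these fits. *Jun* was the only one of the 5 tested members called between *aadd* and WT resting, where 6.56% of all genes tested were called (3.78% higher), and the only one with groups that did not overlap, as in 15.4% of all genes tested.

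*Jun* was not called between WT compartments, with or without WT hypertrophic replicate 1. WT proliferative libraries were at 10.1, 5.74 and 8.99 NRPKM and WT hypertrophic libraries at 5.37, 10.1 and 11.0 NRPKM. Hypertrophic replicates 2 and 3 lay above all WT resting libraries. Without replicate 1 the difference from WT resting was 0.53 (SE 0.16, adjusted *P* = 0.063 in limma), less than 2-fold. All 3 *aadd* libraries lay above all 9 WT libraries, and the lowest of them was 1.45 times the highest WT value. By group mean the order was *aadd*, WT hypertrophic (8.80), WT proliferative (8.27) and WT resting (7.28), and the 3 WT groups overlap. *aadd* was not tested against WT proliferative or hypertrophic. Over the 4 groups the F test gave *Jun* an adjusted *P* of 0.047, the only member under 0.05, where 13.8% of all genes tested had an adjusted *P* under 0.05. With the replicate number as a block the adjusted *P* was 0.082, and it ranged from 0.0076 to 0.14 over all alternatives.

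The *Jun* values rest on about 35 to 154 reads per library. *Jun* has no intron, so its reads cannot be told from those of genomic DNA or unspliced RNA. The 1730 receptor and keratin-associated rows, which these cells are not known to express, held 192, 1238 and 1063 reads in *aadd* replicates 1, 2 and 3 and 625, 603 and 228 in WT resting. The part of such reads in the *Jun* values was not tested. The 10 skeletal muscle markers summed to 48.3, 66.6 and 24.8 NRPKM in *aadd* and to 13.7 to 22.7 in WT resting. None of them was at 0 in all 3 libraries of either group. Of the 3 tested, *Actc1* (2.97) and *Mylpf* (1.82) were called higher in *aadd* and *Tnni2* was not called. Of 7 tendon and fibrous markers tested, only *Mkx* (0.98, adjusted *P* = 0.20 in limma) was called, also higher. Of all genes tested 3.78% were called higher. The part of these markers' cells in the *Jun* difference was not tested.

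The other Jun genes were not called between *aadd* and WT resting. *Jund*, usually the most constitutive of the Jun genes, was at 6.20, 14.9 and 6.94 NRPKM in *aadd* and 5.86, 9.69 and 10.8 in WT resting. It was at 8.62, 11.1 and 11.2 NRPKM in WT proliferative and 8.18, 7.73 and 9.25 in WT hypertrophic. The groups overlap, and *Jund* was called in no comparison, with log2 differences from -0.29 to 0.26. Its *aadd* minus WT resting difference was 0.02 (95% interval -0.90 to 0.94), so a change of the size seen for *Jun* lies outside that interval. *Junb*, which can both replace and oppose Jun, was under the filter. It was at 0.518, 1.96 and 0.504 NRPKM in *aadd*, 0.836, 0.800 and 2.44 in WT resting and 0.734, 0.754 and 0.504 in WT proliferative, on about 2 to 11 reads each. In WT hypertrophic *Junb* was at 0.411, 5.36 and 3.55 NRPKM, so that replicates 2 and 3 lay above all other libraries and replicate 1 below them. With no filter on low values its *aadd* minus WT resting difference was -0.49 (95% interval -2.30 to 1.31, adjusted *P* = 0.87 in limma), an interval that holds the size seen for *Jun*. *Junb* and *Jund* have no introns either.

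*Egr1*, the early growth response factor at the centre of the serum response, was the member called between WT hypertrophic and WT proliferative. *Egr1* was at 7.32, 60.1 and 70.5 NRPKM in WT hypertrophic replicates 1, 2 and 3. In WT proliferative it was at 6.96, 4.19 and 7.18 NRPKM. Replicates 2 and 3 of the hypertrophic group stood far above every proliferative library, but replicate 1 exceeded the highest of them by a ratio of only 1.02. The means were 46.0 ± 33.9 and 6.11 ± 1.66 NRPKM (SD, n = 3 each). The difference was 2.39 on the log2 scale (SE 0.87, 95% interval 0.26 to 4.51), with an adjusted *P* of 0.23 (0.0054 to 0.56 over the alternatives).

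The call, but not its direction, depended on single libraries. It was lost without WT proliferative replicate 1 (2.50, adjusted *P* = 0.31), 2 (2.14, adjusted *P* = 0.46) or 3 (2.52, adjusted *P* = 0.39) and without WT hypertrophic replicate 2 (1.92, adjusted *P* = 0.53) or 3 (1.81, adjusted *P* = 0.56), and it was kept in 5 of 12 alternative fits. Without WT hypertrophic replicate 1 the difference rose to 3.43 (SE 0.29, adjusted *P* = 0.0054). *Egr1* was the only one of the 5 tested members called in this comparison, where 9.67% of all genes tested were called (5.32% higher and 4.34% lower), and the only one without overlap, as in 24.2% of all genes tested. Across all genes limma left 0 under 0.05 after adjustment here, from 2115 before it. Without replicate 1, *Egr1*, *Fosl2* and *Fos* were called, where 18.4% of all genes tested were.

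WT resting libraries spanned the widest range of *Egr1* as a ratio, though not in NRPKM, at 0.992, 19.3 and 39.7 NRPKM. These values rest on about 9, 141 and 308 reads, whose 95% Poisson intervals (4.1 to 17.1, 117.8 to 165.2 and 274.6 to 344.4 reads) do not meet and cover counting error only. The group mean was 20.0 ± 19.4 NRPKM (SD, n = 3), so that *Egr1* was called neither in WT proliferative (log2 difference -0.64, SE 1.26) nor in WT hypertrophic (1.74, SE 1.52) against WT resting. Without WT resting replicate 1, *Egr1* was called lower in WT proliferative (-2.20, adjusted *P* = 0.11) and in *aadd* (-1.86, adjusted *P* = 0.41). In *aadd* it was at 3.74, 19.4 and 5.91 NRPKM, within the WT resting range, and the difference with all libraries was -0.30 (SE 1.32). The highest and lowest *Egr1* values of WT resting differed by a ratio of 40.1. In WT resting replicates 1, 2 and 3 the endothelial markers summed to 5.01, 12.9 and 11.0 NRPKM, the macrophage markers to 14.6, 18.4 and 20.3 and 8 tendon and fibrous markers to 300.5, 375 and 381, whereas the osteoclast markers summed to 58.7, 70.4 and 51.0. Of the fibrous markers *Dcn* was at 10.7, 67.7 and 60.7 NRPKM and *Thbs4* at 0.406, 20.8 and 9.28. *Col3a1* and *Tnmd* were also lowest in replicate 1. In contrast, *Scx* (5.77, 2.72 and 4.61) and *Mkx* (17.4, 14.7 and 12.1) were highest there, and *Lum* and *Tnc* were neither highest nor lowest. Replicate 1, the lowest for *Egr1*, was thus the lowest for the endothelial, macrophage and fibrous sums. It was also the lowest for the 12 cartilage markers, which summed to 3046, 4105 and 4497 NRPKM in replicates 1, 2 and 3. The same held for 10 osteoblast markers (317.6, 605.5 and 462.8), but not for 10 skeletal muscle markers (16.3, 13.7 and 22.7). The part of these cell types in the *Egr1* values was not tested.

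**Figure D2:**
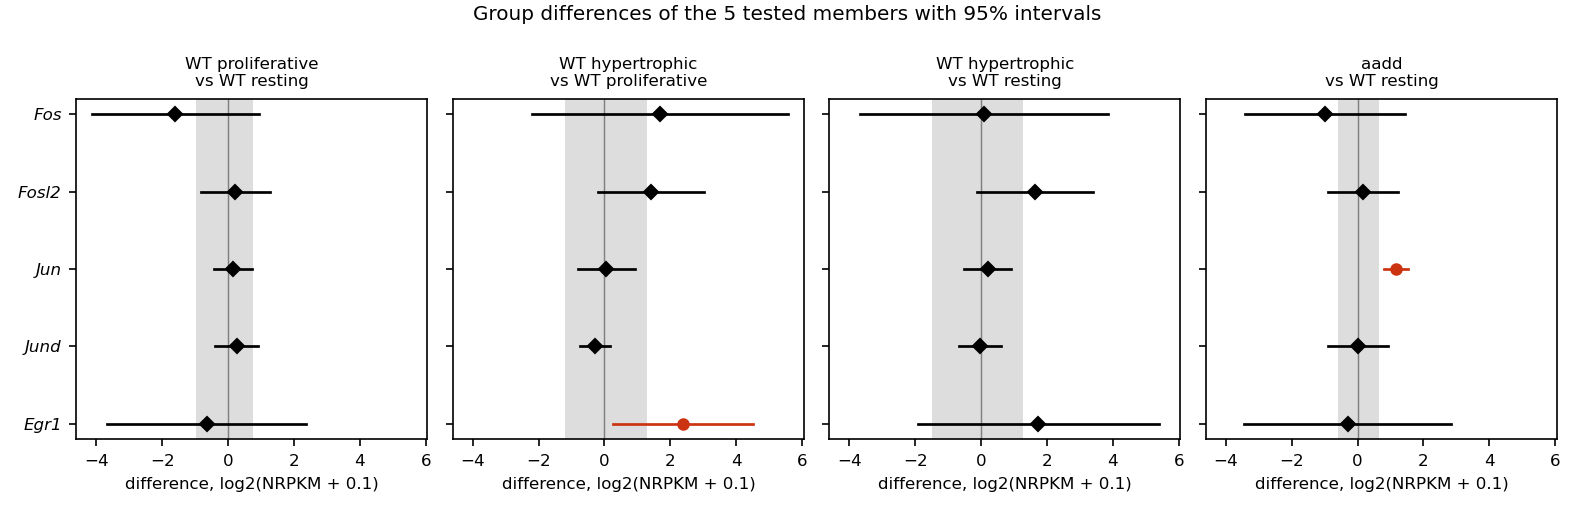
Differences on the log2(NRPKM + 0.1) scale with 95% intervals from limma for the 5 tested members in the 4 comparisons (red circles called, black diamonds not called), over a grey band from the 5th to the 95th percentile of all genes tested. *Jun* in *aadd* has a short interval (0.81 to 1.52), and *Egr1* and *Fos* have intervals several log2 units wide in each comparison.

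*Egr2*, which was under the filter, showed the same high libraries. It was at 1.37, 6.98 and 9.06 NRPKM in WT hypertrophic, 0.386, 0.176 and 1.43 in WT proliferative, 0.952, 1.31 and 1.19 in WT resting and 0.363, 1.84 and 0.825 in *aadd*. Hypertrophic replicates 2 and 3 held about 67 to 80 reads, and the other libraries about 1 to 12. Hypertrophic replicate 1 lay within the proliferative range and above all resting libraries. With no filter on low values (23070 genes), *Egr2* was called in WT hypertrophic against WT proliferative (2.95, SE 0.99, adjusted *P* = 0.34), and *Egr1*, with the same difference of 2.39, then missed the threshold (adjusted *P* = 0.40).

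*Fosl2*, the Fra2 subunit, had the highest level of the Fos genes in every library. It was at 11.0, 52.6 and 57.2 NRPKM in WT hypertrophic, on about 168 to 1114 reads. It was at 5.38, 12.1 and 16.3 NRPKM in WT resting, 10.0, 10.3 and 16.5 in WT proliferative and 11.4, 16.9 and 7.87 in *aadd*. Hypertrophic replicates 2 and 3 were above all other libraries, and replicate 1 was among them. By group mean the order was WT hypertrophic (40.3), WT proliferative (12.3), *aadd* (12.04) and WT resting (11.3 NRPKM), and the last 3 overlap.

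No call was made for *Fosl2* with all libraries, at 1.42 (SE 0.66, adjusted *P* = 0.30) against WT proliferative and 1.64 (SE 0.73, adjusted *P* = 0.22) against WT resting. Without WT hypertrophic replicate 1 both were called, at 2.19 (adjusted *P* = 0.011) and 2.41 (adjusted *P* = 0.021). Between WT hypertrophic and WT resting 0 of the 5 tested members were called in limma, where 13% of all genes tested were (5.84% higher and 7.2% lower). In this comparison 0 of them had an unadjusted *P* up to 0.05 and 0 had groups without overlap, as in 32% of all genes tested. Leaving out replicate 1 also brought *Fosl2* under 0.05 in the F test over 4 groups (adjusted *P* = 0.012, from 0.20 with it).

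*Fos*, the founding member of the family, had the largest SD within groups on the log2 scale among the 5 tested members. WT hypertrophic libraries were at 0.204, 8.26 and 13.8 NRPKM and WT proliferative libraries at 0.730, 0.250 and 3.54. WT resting libraries were at 0.808, 4.38 and 7.09 NRPKM and *aadd* libraries at 1.89, 4.34 and 0.334. The groups overlap, and hypertrophic replicate 1 was the lowest of all 12 libraries while replicate 3 was the highest. *Fos* rests on about 1 to 87 reads per library and was called in no comparison. It passed the filter only with hypertrophic replicates 2 and 3 and WT resting replicate 3.

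The *Fos* difference between WT proliferative and WT resting was -1.60 (SE 1.05, adjusted *P* = 0.48). It was called without WT resting replicate 1 (-2.48, adjusted *P* = 0.28) or without WT proliferative replicate 3 (-2.52, adjusted *P* = 0.36), and between WT hypertrophic and WT proliferative only without hypertrophic replicate 1 (3.41, adjusted *P* = 0.073, from 1.69 and 0.57). With all libraries, 0 of the 5 tested members were called in limma between WT proliferative and WT resting, where 5.53% of all genes tested were (2.56% higher and 2.97% lower). Here too 0 of them had an unadjusted *P* up to 0.05, and 0 had groups without overlap, as in 24% of all genes tested.

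The remaining 3 members were under the filter, and *Fosl1* was at the limit of detection. *Fosb*, a close relative of *Fos*, was at 0.538, 0.580 and 0.104 NRPKM in WT resting and 0.910, 0.554 and 1.19 in WT proliferative. It was at 0.567, 1.85 and 0.889 NRPKM in WT hypertrophic and 0.381, 1.20 and 0.925 in *aadd*, with about 1 to 23 reads per library and all groups overlapping. *Fosl1*, the Fra1 subunit, was listed at 0 in 11 libraries and at 0.148 NRPKM, less than 1 read, in *aadd* replicate 2, and a count of 0 allows up to 3 reads, or 0.497 to 0.852 NRPKM. *Atf3*, a stress-induced partner of Jun, was at 1.44, 6.38 and 4.07 NRPKM in WT hypertrophic and 1.36, 0.365 and 0.247 in WT proliferative, without overlap, as in 24.2% of all genes tested. It was at 0.631, 1.75 and 3.65 NRPKM in WT resting and 2.68, 5.72 and 2.12 in *aadd*, which overlap. With no filter on low values *Atf3* was called in WT hypertrophic against WT proliferative (2.49, SE 0.80, adjusted *P* = 0.34), on about 1 to 7 reads in each proliferative library.

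The libraries in which these genes were high were largely shared. Over the 12 libraries the Pearson *r* of the log2 values was 0.88 for *Fosl2* and *Egr1*, 0.77 for *Fos* with each of them, 0.81 for *Fosl2* and *Junb* and 0.74 for *Egr1* and *Egr2*. After the group means were removed, *r* was 0.96 for *Fos* and *Fosl2*, 0.87 for *Fosl2* and *Egr1* and 0.78 for *Fos* and *Egr1*. *Jun* had *r* of 0.14 with *Egr1*, 0.28 with *Fos*, 0.18 with *Fosl2* and 0.11 with *Egr2* over the 12 libraries. Within groups these values were higher, at 0.55, 0.78, 0.71 and 0.70. For *Jund* and *Jun*, *r* was -0.07 over the 12 libraries and -0.03 within groups. These are descriptions over 12 libraries, in which each pair shares the library, its depth and its cell content.

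**Figure D3:**
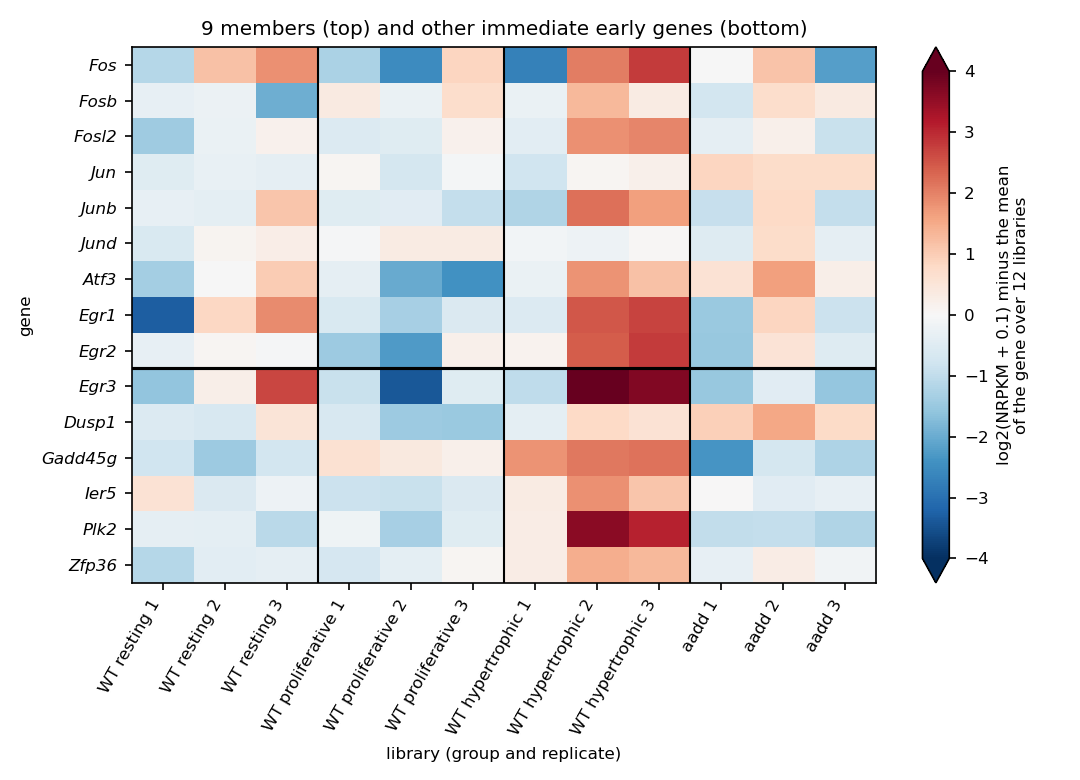
Colour gives log2(NRPKM + 0.1) minus the mean of the gene over the 12 libraries (columns) for 9 members, *Fosl1* left out, and for *Egr3* and 5 other immediate early genes called in WT hypertrophic against WT proliferative. WT hypertrophic replicates 2 and 3 are high for *Fos*, *Fosl2*, *Junb*, *Atf3*, *Egr1* and *Egr2*, and *Jun* is above its mean in the 3 *aadd* libraries.

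Within groups *Fos* and *Egr1* were among the most variable genes. The residual SD of log2(NRPKM + 0.1) was 2.08 for *Fos* and 1.77 for *Egr1*, above 98.7% and 98.2% of all genes tested, whose median was 0.323. It was 0.853 for *Fosl2*, 0.431 for *Jund* and 0.354 for *Jun*. Differences between groups held 71.6% of the variance of *Jun*, 47.3% for *Fosl2*, 28.9% for *Egr1*, 14.7% for *Fos* and 9.83% for *Jund*, against a median of 45.6% over all genes tested.

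The genes most like each member over the 12 libraries, among tested genes that are no members, differed from member to member. For *Jun* they were *Tshz1* (*r* = 0.910), *Plxna4* (0.855), *Sall1* (0.853), *Hist1h2bf* (0.847) and *Mir3058* (0.847). For *Fosl2* they were *Capg* (0.980), the endothelial marker *Pecam1* (0.963), the matrix protease gene *Mmp14* (0.962), *Ifnar2* (0.958) and *Gnai2* (0.951). For *Egr1* they were *Fxyd5* (0.924), *Fcgrt* (0.907), *Cd44* (0.903), *S100a16* (0.901) and *Pde10a* (0.901). For *Fos* they included *Prkcdbp* (0.920), *9130023H24Rik* (0.908), *Zfyve1* (0.896) and *Ppp4c* (0.891), and for *Junb* *Lamc1* (0.941), *Ifitm3* (0.934), *Tmppe* (0.913), *Grn* (0.903) and *Ap2a1* (0.896).

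Markers of other cell types moved with the high hypertrophic values. All 10 endothelial and all 10 osteoclast markers were higher in WT hypertrophic replicates 2 and 3 than in replicate 1. This did not hold for all macrophage markers, as *Fcgr1* and *Aif1* were lower in replicate 3 than in replicate 1 and *C1qa* was at 0 in both. In the other groups the osteoclast fusion genes *Ocstamp* and *Dcstamp* were at 0 to 0.400 and 0 to 0.855 NRPKM and the endothelial gene *Cldn5* at 0 to 1.61. *Ocstamp* and *Dcstamp* were at 0 in all 3 *aadd* libraries and *Cldn5* in all 3 proliferative ones. Their part in the *Egr1*, *Egr2*, *Fosl2*, *Fos*, *Junb* and *Atf3* values was not tested. In the other 10 libraries *Egr1* ranged from 0.992 to 39.7 NRPKM.

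**Figure D4:**
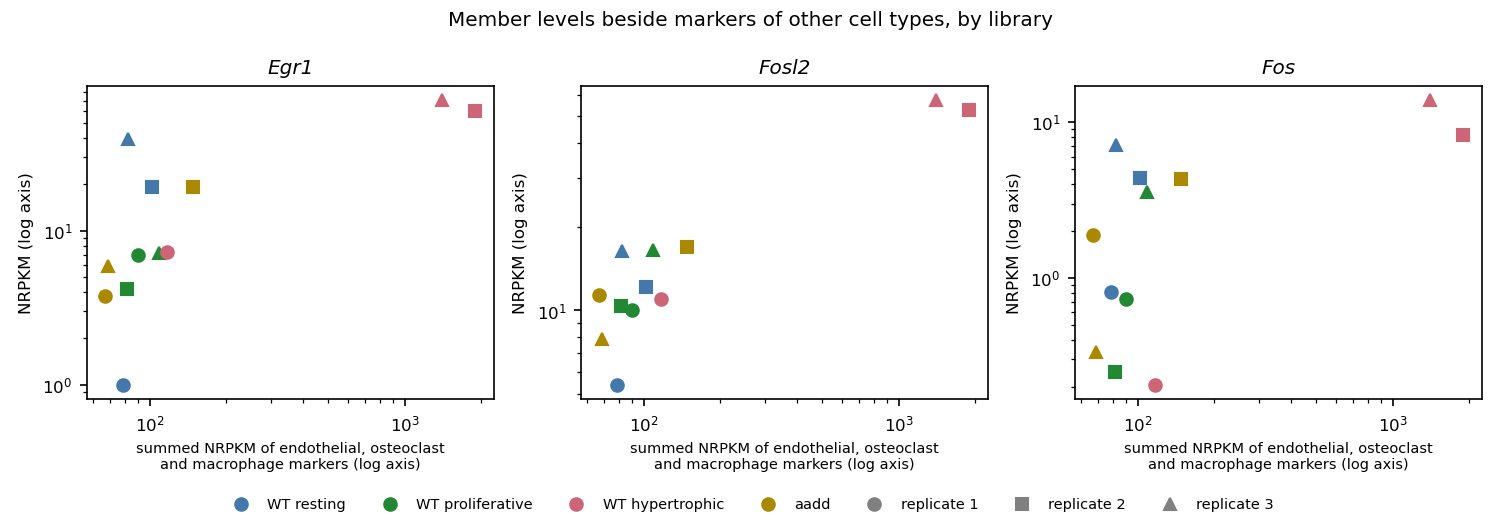
NRPKM of *Egr1*, *Fosl2* and *Fos* (log axes) against the summed NRPKM of endothelial, osteoclast and macrophage markers (log axis) in the 12 libraries. WT hypertrophic replicates 2 and 3 lie apart on both axes, with marker sums of 1899 and 1404 against 67.0 to 148 in the other 10 libraries, among which *Egr1* runs from 0.992 to 39.7.

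Other genes of the response were read from lists. Of 24 other immediate early genes tested, 5 rose in WT hypertrophic against WT proliferative and 0 fell in limma, where 5.32% of all genes tested rose and 4.34% fell. The median log2 difference of the 24 was 0.73 against 0.04 over all genes tested. Those that rose were *Plk2* (2.99), *Ier5* (1.87), *Gadd45g* (1.62), *Dusp1* (1.52) and *Zfp36* (1.34), none with an adjusted *P* under 0.05. *Plk2*, a kinase, was at 6.09, 60.7 and 42.7 NRPKM in WT hypertrophic and 4.35, 1.93 and 3.48 in WT proliferative, so that hypertrophic replicates 2 and 3 stood far above replicate 1, as for *Egr1*. It was at 5 NRPKM or more in the hypertrophic libraries only, so it passed the filter through them. A gene admitted in this way could hardly be called lower in WT hypertrophic, which limits what the counts of genes that rose or fell can show. *Gadd45g*, a stress sensor, was high in all 3 hypertrophic libraries, at 19.3, 24.1 and 24.97 NRPKM in hypertrophic and 8.45, 7.26 and 6.28 in proliferative libraries. Without hypertrophic replicate 1, 10 of the 24 were called higher and 0 lower, where 18.4% of all genes tested were called.

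The closest relative of the Egr members, *Egr3*, also rose in WT hypertrophic against WT proliferative (3.89, SE 1.53, adjusted *P* = 0.25, and 5.55 without hypertrophic replicate 1). It was at 0.419, 19.5 and 13.6 NRPKM in WT hypertrophic and 0.468, 0 and 0.649 in WT proliferative. *Egr3* passed the filter only with hypertrophic replicates 2 and 3 and WT resting replicate 3, the last at 6.61 NRPKM. Among the tested AP-1 partners outside the 10 members, *Jdp2* rose (1.51, and 1.80 without replicate 1) and none fell. Of 20 tested upstream kinases and factors (such as *Srf*, *Creb1* and MAP kinases) 0 were called in limma in any of the 4 comparisons, and without replicate 1 the kinases *Rps6ka3* (1.08) and *Rps6ka2* (1.0) were called higher in WT hypertrophic against WT proliferative and *Rps6ka3* (1.25) against WT resting. Of 10 heat shock and stress genes, 0 were called in WT hypertrophic against WT proliferative with all libraries, and *Hmox1* (1.67, adjusted *P* = 0.049) was without replicate 1.

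AP-1 target genes of bone were read in the same way, with the same limit from the filter for those admitted through the hypertrophic libraries. Of 11 tested, 5 were called higher and 0 lower in WT hypertrophic against WT proliferative, where 5.32% of all genes tested rose, with a median of 2.06 against 0.04 over all genes tested. Among them *Mmp9* (4.62), *Spp1* (4.44) and *Ctsk* (3.31) had the largest differences. *Mmp9* and *Ctsk* are also osteoclast markers of the lists above. *Mmp9* was at 10.3, 422 and 378 NRPKM in hypertrophic libraries, against 1.69 to 8.10 in proliferative ones. *Mmp13*, the collagenase of hypertrophic cartilage, was at 3.05, 735 and 661 NRPKM in hypertrophic and 3.81, 4.12 and 6.24 in proliferative libraries and was not called with replicate 1 in the fit (4.61, adjusted *P* = 0.28). Without replicate 1 it was called (7.21, adjusted *P* = 0.0018), and 7 of the 11 bone targets were called higher and 0 lower, where 18.4% of all genes tested were called.

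Against WT resting the counts were as follows, with the same limit from the filter in WT hypertrophic. In WT proliferative, *Gadd45g* rose (1.40) and *Socs3*, a feedback inhibitor of cytokine signaling, fell by 2.14 on the log2 scale (adjusted *P* = 0.047). The other 22 immediate early genes were not called, where 2.56% of all genes tested rose and 2.97% fell. In WT hypertrophic, 4 of 24 rose and 0 fell, where 5.84% of all genes tested rose, led by *Gadd45g* (3.02, adjusted *P* = 0.0035), *Plk2* (2.94) and *Zfp36* (1.65). Without hypertrophic replicate 1, 9 of the 24 were called higher and 0 lower, where 19.2% of all genes tested were called. The Egr corepressor *Nab1* rose (1.08, adjusted *P* = 0.043, and 1.25, adjusted *P* = 0.0087, without replicate 1). Of the bone targets 7 of 11 rose with all libraries and 7 without replicate 1. *Egr3* (3.53, adjusted *P* = 0.085) was called without replicate 1 but not with all libraries (1.87).

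In *aadd* against WT resting, *Dusp1* and *Klf2* rose, *Myc* fell and 21 immediate early genes were not called. Of all genes tested, 3.78% were called higher and 2.78% lower here. *Dusp1*, the phosphatase that ends MAP kinase signaling, was at 30.7, 46.4 and 27.1 NRPKM in *aadd* and 10.8, 10.1 and 22.5 in WT resting, without overlap (1.32, SE 0.36, adjusted *P* = 0.32). *Myc* was at 30.2, 29.2 and 43.3 NRPKM in *aadd* and 66.9, 54.6 and 44.1 in WT resting, also without overlap (-0.69, SE 0.24, adjusted *P* = 0.41). In this comparison 15.4% of all genes tested had groups without overlap. None of 9 AP-1 partners, 3 Egr and Nab genes and 20 upstream kinases and factors was called. *Vegfa* (-0.66) was the only one of 11 bone targets called and *Ddit3* (-0.81) the only one of 10 stress genes, both lower, where 2.78% of all genes tested were called lower.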

How the data were processed

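LCM RNA from 12 libraries was amplified (NuGen), tagmented (Nextera) and sequenced on a HiSeq 2500. Reads of low quality, with several alignments or duplicated were discarded by the authors, who used GeneSpring. The submitters' processing notes name TopHat and mm10. The deposited values are RPKM normalized further by the authors (NRPKM). How libraries were normalized to each other and the use of strand are not given in the sources used here. The file gives no counts. Depth was read from 1730 single-exon rows up to 1600 bases long (84.1% to 94.5% of nonzero values within 0.05 of a whole read), and reads per member are approximate, from the GENCODE M21 exon length of 1 transcript.

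Tests were run in limma 3.58.1 (R 4.3.3; tables in Python 3.11.15) on log2(NRPKM + 0.1) of genes that reached 5 NRPKM in 3 or more libraries. The fit for 2 groups held their 6 libraries and no covariate, and adjusted *P* values are Benjamini-Hochberg over all genes tested. The 4 groups were compared with limma's F test. Scripts were checked on simulated data. Alternatives were no filter on low values, a pseudocount of 1, rescaling, quantile normalization, 1 fit of all libraries, a replicate block and each library left out. Values and counts of gene lists without WT hypertrophic replicate 1 were added after the data were seen. Members, gene lists and motifs were chosen with earlier results of these data known. Named genes were the 10 members, called genes of each list (at most 3 by size in each direction, more where a whole count is named), a few others by role, and the 5 genes most like *Fos*, *Egr1*, *Jun*, *Junb* and *Fosl2* by Pearson *r*, apart from items that are not reported here. *Mmp13*, *Hmox1*, *Rps6ka2*, *Rps6ka3* and the single fibrous and macrophage markers were added after their values were seen.

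Groups share replicate numbers 1 to 3, whose origin is not given. Deviations of same-numbered WT proliferative and WT resting libraries from their group means correlated across genes at *r* of 0.281, 0.179 and 0.198. The fit with the block was therefore read as a paired alternative there, while the main values come from the fit without it. With the block *Fos* was at -1.60 (adjusted *P* = 0.30 in limma), and 0 members were called.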

Additional observations from a re-analysis of the deposited data

How the results depend on the processing

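Depth limits *Fosl1*, which held less than 1 read in every library, and *Fosb*, which held about 1 to 23. *Jun* in *aadd* against WT resting kept its call and direction in all 12 alternatives (1.07 to 1.21). With the replicate block, 2 members were called in WT hypertrophic against WT proliferative (*Egr1* and *Fosl2*, adjusted *P* = 0.30 for both) and 2 against WT resting (*Egr1*, adjusted *P* = 0.12, and *Fosl2*, adjusted *P* = 0.08), from 1 and 0. In the F test over 4 groups 0 members had an adjusted *P* under 0.05 with the block, from 1. Of all genes tested, the block moved those with an adjusted *P* under 0.05 from 68 to 9 in WT proliferative against WT resting, and it changed no other member call. Between WT hypertrophic and WT proliferative and between *aadd* and WT resting the same-numbered libraries correlated at -0.097 to 0.28, with both signs in each. The 0.28 is that of replicate 2 of *aadd* and WT resting. Between WT hypertrophic and WT resting *r* was 0.066, 0.063 and 0.111. The number was not treated as a pairing in these comparisons, and the values do not settle whether it marks one.

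With no filter on low values the genes called rose from 605 to 1495, 1057 to 1929, 1426 to 2537 and 717 to 1267 in the 4 comparisons, more genes being tested. Then 2 members (*Atf3* and *Egr2*) were called in WT hypertrophic against WT proliferative and 0 had an adjusted *P* under 0.05 in the F test. With all 12 libraries in one fit, *Fosl2* alone was called in WT hypertrophic against WT proliferative (adjusted *P* = 0.18) and against WT resting (adjusted *P* = 0.10), where the count of members rose from 0 to 1. *Egr1*, still at 2.39 against WT proliferative, then had an adjusted *P* of 0.25 and was not called. Quantile normalization turned *Jun* in WT hypertrophic against WT proliferative to -0.06 and *Fos* in WT hypertrophic against WT resting to -0.31. The cause of these changes was not tested.

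With single libraries left out, the members called ranged from 0 to 2 in WT proliferative against WT resting, 0 to 3 in WT hypertrophic against WT proliferative, 0 to 1 in WT hypertrophic against WT resting and 1 to 2 in *aadd* against WT resting. Members with an adjusted *P* under 0.05 over 4 groups ranged from 0 to 2, and were 0 in 9 of the 12 such fits. The genes called in WT hypertrophic against WT proliferative ranged from 658 (without hypertrophic replicate 3) to 2007 (without replicate 1). Directions turned only for differences that were not called with all libraries. In WT proliferative against WT resting they ranged from -0.23 to 0.56 for *Fosl2*, 0 to 0.44 for *Jund*, -2.20 to 0.39 for *Egr1* and -0.02 to 0.38 for *Jun*. In WT hypertrophic they ranged from -0.18 to 0.38 for *Jun* against WT proliferative, and from -0.95 to 1.81 for *Fos* and -0.29 to 0.15 for *Jund* against WT resting. In *aadd* they ranged from -0.29 to 0.50 for *Fosl2*, -0.37 to 0.26 for *Jund* and -1.86 to 0.74 for *Egr1*.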
